A study of Mus musculus with 6 samples.

Results

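The HoxC cluster is a run of 9 homeobox genes on mouse chromosome 15, Hoxc4, Hoxc5, Hoxc6, Hoxc8, Hoxc9, Hoxc10, Hoxc11, Hoxc12 and Hoxc13. All 9 were found by gene symbol, with 1 row each, among the 21937 genes measured. The cluster was chosen by its measured values, since the ratios between the lines at Hoxc5, Hoxc10, Hoxc11 and Hoxc13 in these libraries were already known. The values below therefore describe the cluster and support no claim about how it was found. ChIP-seq, in which chromatin fragments bound by an antibody are sequenced, was done in mK4 and mK3, both immortalized lines of the E11.5 metanephros, the embryonic precursor of the kidney. Both are labelled as strain CD1. As background, mK4 is used as a model of induced metanephric mesenchyme, which is turning into epithelium, and mK3 as a model of the earlier, uninduced mesenchyme. Each line is an immortalized culture, and the labels do not say whether it is a clone. Each line had 1 library with the antibody labelled H3K4, 1 with the antibody labelled H3K27 and 1 of input DNA without antibody. With 1 library per group there was no test across samples, and intervals are 95% counting intervals that leave out variation between cultures and immunoprecipitations.

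Hox proteins are transcription factors that give cells their position along the body axis, and the order of the genes in a cluster follows the order in which they are used from head to tail. Genes at the Hoxc4 end act more anteriorly and genes at the Hoxc13 end more posteriorly. Silent Hox clusters are classic targets of Polycomb proteins, which trimethylate lysine 27 of histone H3, and active Hox genes carry methylated lysine 4. In the mouse kidney, Hoxa11, Hoxc11 and Hoxd11 act together in the metanephric mesenchyme, where they are needed for outgrowth of the ureteric bud.

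A pair of microRNA genes lies inside the cluster and marks its layout. Mir196a-2 stands between Hoxc10 and Hoxc9, at the border between the posterior and the anterior genes as grouped here, and Mir615 stands inside Hoxc5. Their mature sequences, from RefSeq (GRCm38.p6, chromosome 15, plus strand), are shown with the seed, bases 2 to 8, in capitals.
mmu-miR-196a-5p: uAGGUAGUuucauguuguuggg
mmu-miR-615-3p: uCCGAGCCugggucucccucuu
The seeds of these microRNAs differ. Mir196a-2 had 2 reads in each of the 4 ChIP libraries, 0 in mK4 input and 1 in mK3 input. Mir615 had 2 reads in mK4 H3K4, 0 in mK3 H3K4, 1 in each H3K27 library and 0 in each input. These counts are too low for any comparison. Of the 9 HoxC genes, only Hoxc4 had a start site sequence in the RefSeq table, at chr15:103034145-103034444 of GRCm38.p6 on the plus strand, shown with CpG pairs in capitals because Polycomb targets are often rich in them.
Hoxc4 start region: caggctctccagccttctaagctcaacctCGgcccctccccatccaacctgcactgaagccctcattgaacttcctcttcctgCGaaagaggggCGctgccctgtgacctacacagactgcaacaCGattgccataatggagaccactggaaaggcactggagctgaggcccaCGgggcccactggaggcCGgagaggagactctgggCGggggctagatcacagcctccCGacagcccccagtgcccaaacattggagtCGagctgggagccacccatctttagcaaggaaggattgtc
It held 9 CpG pairs and was 60.3% G and C. Of 32851 windows of the same length in that table, 45.8% held at least as many CpG pairs, and the median was 7. The start used in the table lies downstream of the first base of Hoxc4 in the same annotation, and the deposited counts do not cover this window as such.

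Exon reads summed to 714011 in mK4 H3K4 and 595305 in mK3 H3K4, 481235 in mK4 H3K27 and 593079 in mK3 H3K27, and 386695 in mK4 input and 311409 in mK3 input. The HoxC genes took 75 to 492 of these reads per library, and 2 to 95 reads per gene. The antibody labelled H3K4 carries the catalogue number ab8898, which is known as the number of an antibody to methylated lysine 9 of histone H3, a mark of heterochromatin. In this light its reads were checked over gene lists. Its median log2 ratio over input was 0.33 in mK4 and 0.50 in mK3 at 60 ribosomal protein genes, -0.00 in mK4 and -0.06 in mK3 at 332 Zfp genes, a family in which that heterochromatin mark is known to be common, and 0 over all genes. The label is kept here as a name, and which modification these libraries hold was not tested.

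Over the posterior genes, mK4 had far fewer H3K4 reads than mK3. Hoxc11, the Hox11 paralogue of the cluster, had 6 H3K4 reads in mK4 and 53 in mK3. This makes its share of reads 10.6-fold lower in mK4 (4.56 to 30.2). Its density was 9.16 RPKM (reads scaled to exon length and to the exon reads of the library) in mK4 and 97.1 RPKM in mK3. In mK3 this was the highest of the 9 genes. Its interval there (72.7 to 127) overlapped those of Hoxc9 (75.0 to 113) and Hoxc10 (64.7 to 101). Hoxc11 input was 2 reads in mK4 and 5 in mK3. Hoxc10, which is known for hindlimb and lumbar motor neuron patterning, had 19 H3K4 reads in mK4 and 81 in mK3, 5.11-fold lower in mK4 (3.07 to 8.93), with 12 and 17 input reads in mK4 and mK3. Hoxc13, which acts in hair and nail keratinocytes, had 25 H3K4 reads in mK4 and 75 in mK3, 3.60-fold lower in mK4 (2.26 to 5.91). Its input was 11 reads in mK4 and 12 in mK3, a share 1.35-fold lower in mK4 with an interval that spans 1 (0.547 to 3.39). Hoxc12 had 8 H3K4 reads in mK4 and 19 in mK3, 2.85-fold lower in mK4 (1.19 to 7.52), with 6 and 8 input reads in mK4 and mK3. In mK4 all 4 posterior genes had similar H3K4 densities, between 9.16 and 15.9 RPKM, with overlapping intervals, whereas in mK3 they ran from 37.8 RPKM at Hoxc12 to 97.1 RPKM at Hoxc11.

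**Figure D1:**
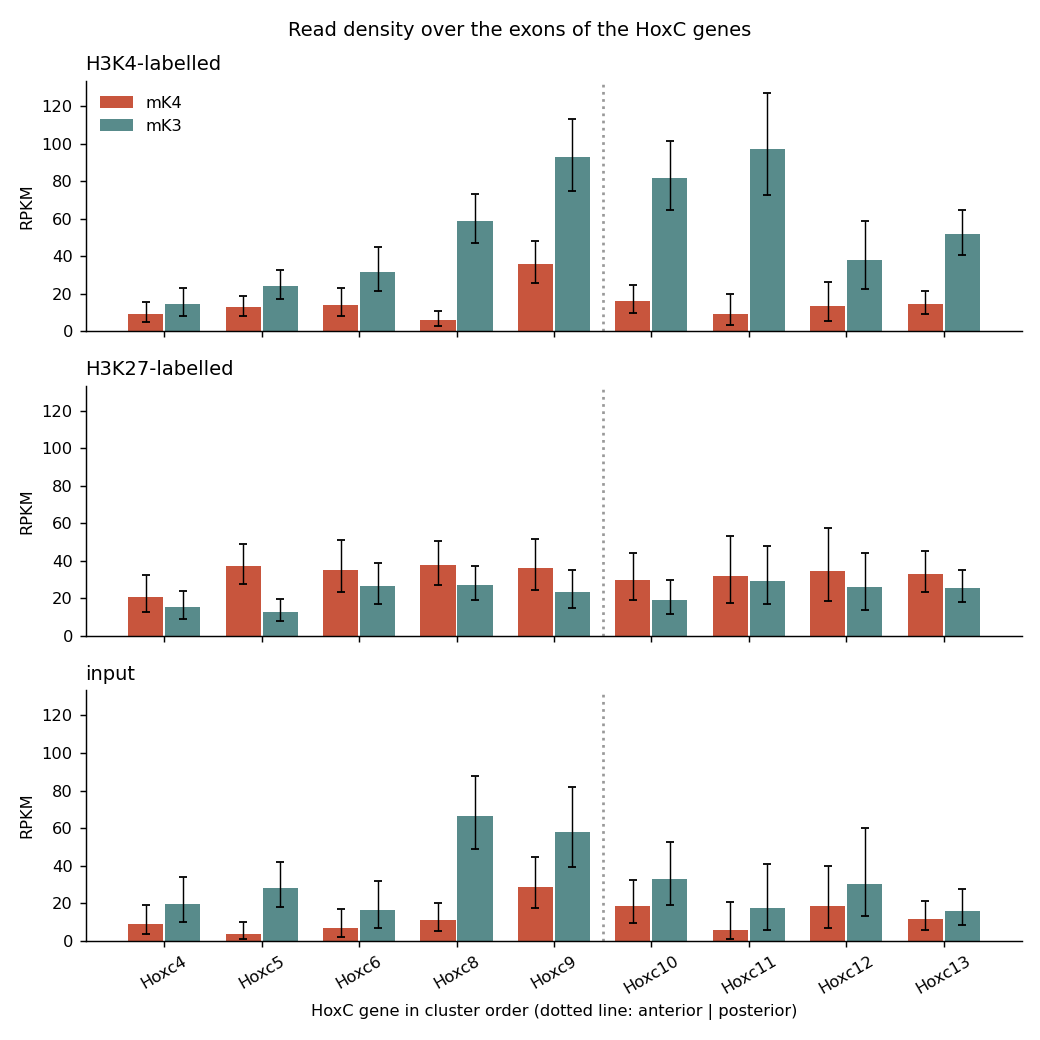
Reads scaled to exon length and library total (RPKM) over the 9 HoxC genes in cluster order, for mK4 (left bar) and mK3 (right bar), with 1 library per bar and 95% Poisson intervals. H3K4 densities of mK3 are highest from Hoxc8 to Hoxc11 (58.8 to 97.1 RPKM), those of mK4 reach 35.8 RPKM at Hoxc9, and H3K27 densities span 20.9 to 37.7 RPKM in mK4.

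Among the anterior genes, Hoxc8 and Hoxc9 had the most H3K4 reads in mK3. Hoxc8, which patterns the thoracic skeleton and brachial motor neurons, had 10 H3K4 reads in mK4 and 83 in mK3, 9.96-fold lower in mK4 (5.15 to 21.5). Its input was lower as well, with 10 reads in mK4 and 49 in mK3, or 6.08-fold lower in mK4 (3.04 to 13.5). In mK3 the Hoxc8 input density of 66.4 RPKM was above its H3K4 density of 58.8 RPKM, with overlapping intervals. Hoxc9, a determinant of thoracic motor neurons, had 44 H3K4 reads in mK4 and 95 in mK3, 2.59-fold lower in mK4 (1.79 to 3.79), and 19 and 31 input reads in mK4 and mK3. In mK4 it had the highest H3K4 density of the cluster, 35.8 RPKM.

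Further toward the anterior end the H3K4 difference was smaller. Hoxc6 had 16 H3K4 reads in mK4 and 30 in mK3 (2.25-fold lower in mK4, 1.19 to 4.42). Hoxc5, which with Hoxa5 maintains phrenic motor neurons, had 25 in mK4 and 39 in mK3 (1.87-fold lower, 1.10 to 3.23). Hoxc4 had 13 in mK4 and 17 in mK3, and the interval of its ratio spanned 1 (1.57-fold lower, 0.717 to 3.51). Input reads were 4 in mK4 and 8 in mK3 at Hoxc6, 4 and 24 at Hoxc5, and 7 and 12 at Hoxc4. Of all 9 genes, 8 had an H3K4 interval below 1, against 11% of the 21226 genes with H3K4 reads. Whether an interval leaves out 1 also depends on read counts. In mK3 the median was 19 H3K4 reads per gene row, and the HoxC genes had 17 to 95. Once each H3K4 ratio was divided by the input ratio of the same gene, 6 of the 9 lay below 1 and 3 above, with an interval below 1 at 1 gene, Hoxc10, and above 1 at 1 gene, Hoxc5. The divided ratio was 0.293 at Hoxc11 (0.0371 to 3.81), 0.376 at Hoxc13 (0.134 to 1.08) and 0.773 over the whole cluster (0.553 to 1.09), each with an interval that spans 1. Since the genes were chosen with these ratios known, that contrast is a description.

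H3K27 lay on the other side of 1. Scaled to library totals, all 9 genes had a higher share of H3K27 reads in mK4 than in mK3, a direction that 44.2% of the 21328 genes with reads showed. Scaled to the reads of chromosome 15 instead, 7 of 9 were higher, Hoxc11 was at 0.828 and Hoxc13 at 0.998, and the whole cluster was at 1.17 (0.969 to 1.41), with an interval that spans 1. Hoxc5 was the 1 gene whose interval lay above 1, with 49 reads in mK4 and 21 in mK3 (2.88-fold, 1.69 to 5.05), and such an interval was found at 7.77% of genes. Hoxc9 had 30 H3K27 reads in mK4 and 24 in mK3, and Hoxc10 had 24 in mK4 and 19 in mK3. Their ratios were 1.54 (0.871 to 2.75) and 1.56 (0.817 to 3.01). Hoxc8 had 43 reads in mK4 and 38 in mK3, Hoxc13 had 39 in mK4 and 37 in mK3, and Hoxc6 had 27 in mK4 and 25 in mK3. The lowest counts were 20 in mK4 and 18 in mK3 at Hoxc4, 14 and 13 at Hoxc12, and 14 and 16 at Hoxc11. Densities in mK4 lay between 20.9 RPKM at Hoxc4 and 37.7 RPKM at Hoxc8, and those in mK3 between 12.96 RPKM at Hoxc5 and 29.4 RPKM at Hoxc11.

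Set against the input of its own line, the cluster showed H3K27 in mK4 and H3K4 at its posterior end in mK3. A gene was called marked when its scaled count plus 5 was at least 2-fold that of the input. H3K27 marked 5 of the 9 genes in mK4 (Hoxc5, Hoxc6, Hoxc8, Hoxc11 and Hoxc13) and 0 in mK3, where 9.06% and 10.3% of all genes were marked in mK4 and mK3. H3K4 marked 1 of 9 in mK4, Hoxc5, and 3 of 9 in mK3, Hoxc10, Hoxc11 and Hoxc13, where 3.69% and 4.94% of all genes were marked in mK4 and mK3. Summed over Hoxc4 to Hoxc9, the H3K27 share was 3.09-fold the input share in mK4 (2.20 to 4.40) and 0.534-fold in mK3 (0.413 to 0.689). Summed over Hoxc10 to Hoxc13 it was 2.36-fold in mK4 (1.55 to 3.67) and 1.06-fold in mK3 (0.726 to 1.58). The H3K4 share of the posterior sum was 1.01-fold its input in mK4 (0.644 to 1.62) and 2.84-fold in mK3 (2.04 to 4.05). That of the anterior sum lay near input in both lines, at 1.33-fold in mK4 (0.928 to 1.93) and 1.11-fold in mK3 (0.896 to 1.39). Hoxc5 had the highest H3K27 value over input, 9.84-fold in mK4 (3.61 to 37.6) on 4 input reads, against 0.459-fold in mK3 (0.243 to 0.861).

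**Figure D2:**
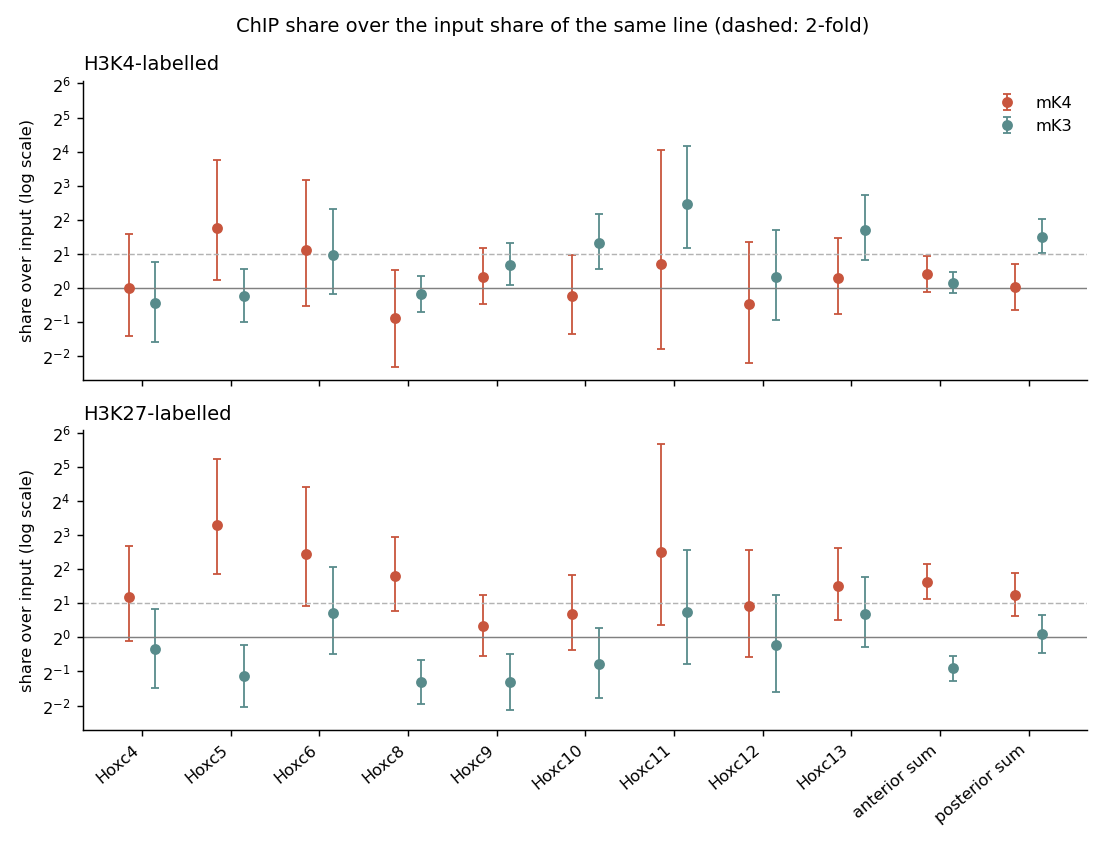
Share of ChIP reads over the share of input reads of the same line on a log scale, for the 9 HoxC genes and their anterior and posterior sums, with 95% counting intervals, 1 library per point, mK4 left of mK3. H3K27 of the anterior sum stands at 3.09-fold in mK4 and 0.534-fold in mK3, and H3K4 of the posterior sum at 1.01-fold in mK4 and 2.84-fold in mK3.

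Between the lines, 3 of the 9 genes were called lower in mK4 for H3K4 (marked over input in either line, with a difference of 2-fold or more on the log2 scale with pseudocount), the posterior Hoxc10, Hoxc11 and Hoxc13, and 0 were called higher. Over all genes 0.392% were called lower and 0.424% higher. For H3K27, Hoxc5 was called higher in mK4 and 0 genes lower, against 0.889% and 0.934% of all genes. These 4 genes are the ones for which the cluster was chosen. Hoxc8, with the largest H3K4 difference of the anterior genes, was marked by H3K4 in neither line and so was not called.

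The input also differed between the lines over the cluster. All 9 genes had a lower share of input reads in mK4 than in mK3, where 52.1% of the 21003 genes with input reads were lower. The interval lay below 1 at Hoxc5, Hoxc8 and Hoxc9 (3 of 9, against 7.92% of genes). The log2 ratio passed 2-fold at Hoxc5 and Hoxc8 (2 of 9, against 6.2% of genes). Both shares also depend on read counts, with a median of 13 input reads per gene row in mK4 and 10 in mK3. The anterior sum had 44 input reads in mK4 and 124 in mK3, 3.50-fold lower in mK4 (2.46 to 5.06). The posterior sum had 31 in mK4 and 42 in mK3, 1.68-fold lower (1.03 to 2.77). The H3K4 sums were 108 in mK4 and 264 in mK3 for the anterior genes, 2.93-fold lower in mK4 (2.34 to 3.70), and 58 in mK4 and 228 in mK3 for the posterior genes, 4.71-fold lower (3.52 to 6.40). Divided by the input ratio of the same genes, the anterior H3K4 ratio between the lines was 1.19 (0.779 to 1.85). The posterior one was 0.357 (0.200 to 0.643). Most posterior reads lie over Hoxc10, Hoxc11 and Hoxc13, whose ratios were known when the cluster was chosen. Contrasts of the posterior with the anterior sum are therefore a description. At Hoxc12, the other posterior gene, the divided ratio was 0.581 (0.125 to 2.79), with an interval that spans 1. For H3K27, division by the input ratio gave 5.78 (3.75 to 8.97) for the anterior genes and 2.22 (1.24 to 4.01) for the posterior genes. Beyond this division, the part of the input in the differences between the lines was not tested. The posterior H3K4 ratio was 0.622 times the anterior one (0.423 to 0.909), and the posterior input ratio was 2.08 times the anterior one (1.12 to 3.85). H3K27 sums were 169 reads in mK4 and 126 in mK3 for the anterior genes (1.65-fold higher in mK4, 1.30 to 2.10), and 91 in mK4 and 85 in mK3 for the posterior genes (1.32-fold, 0.971 to 1.79). Scaled to the reads of chromosome 15, these H3K27 ratios were 1.27 for the anterior genes (1.002 to 1.61) and 1.01 for the posterior genes (0.746 to 1.38), while all 9 genes stayed below 1 in H3K4 and in input.

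Summed over the genes beside the cluster, the H3K4 and input ratios were nearer to 1 than over the cluster. The H3K27 ratio was below 1. On the Hoxc13 side, Calcoco1, Atp5g2, Atf7, Npff and Tarbp2 together had 71 H3K4 reads in mK4 and 88 in mK3, 37 H3K27 reads in mK4 and 67 in mK3, and 69 input reads in mK4 and 55 in mK3. On the Hoxc4 side, Smug1, Cbx5 (which encodes the heterochromatin protein HP1 alpha), Hnrnpa1, Nfe2 and Copz1 had 221 H3K4 reads in mK4 and 194 in mK3, 114 H3K27 reads in mK4 and 214 in mK3, and 111 input reads in mK4 and 126 in mK3. Over all 10 the H3K27 ratio between the lines was 0.662 (0.540 to 0.810), below 1 where that of the cluster was above it. The ratio of the whole cluster relative to that of the 10 flanking genes was 0.326 for H3K4 (0.254 to 0.417), 2.29 for H3K27 (1.74 to 3.03) and 0.454 for input (0.318 to 0.648).

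**Figure D3:**
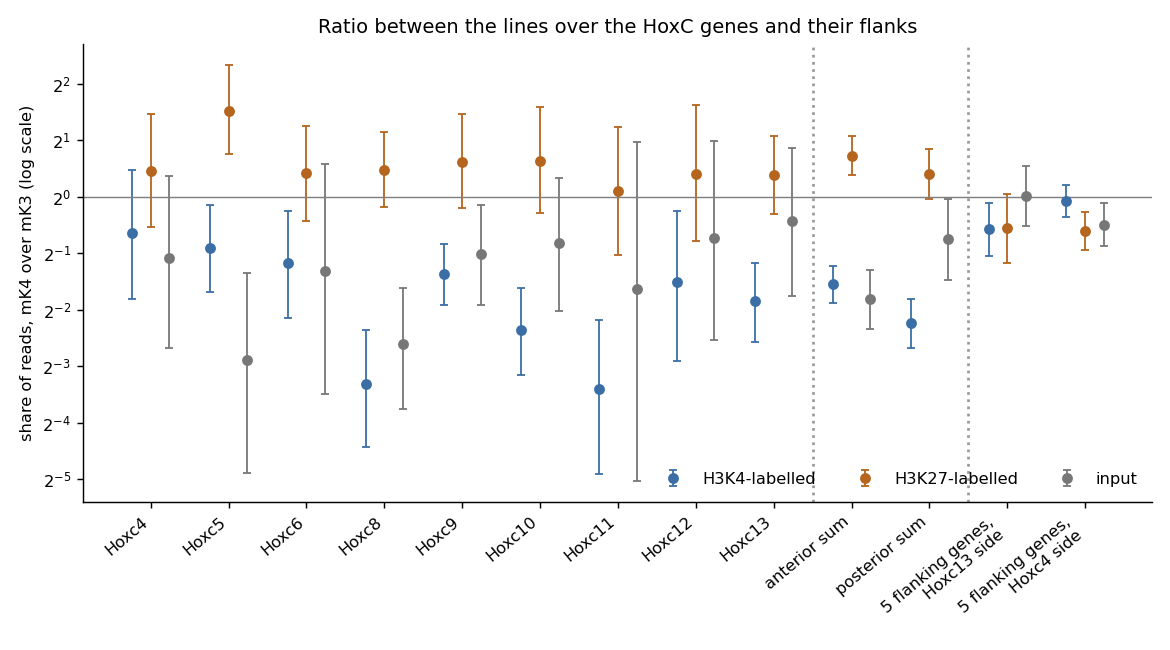
Share of reads in mK4 over that in mK3 on a log scale, with 95% counting intervals and 1 library per line and kind, for each HoxC gene, the anterior and posterior sums, and the sums of the 5 flanking genes on each side. At all 9 genes H3K4 and input lie below 1. H3K27, scaled to library totals, lies above 1 at all 9 (at 7 of 9 when scaled to chromosome 15 reads). Both flanking sums lie below 1 in H3K27 and also in H3K4, where they are nearer to 1 than the HoxC sums.

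The ratio of H3K4 to H3K27 reads within a line does not use the input. It was lower in mK4 than in mK3 at all 9 genes, with an interval below 1 at 8 (all but Hoxc4). The difference was at least 2-fold on the pseudocount scale at the same number of genes, 8 of 9, against 4.45% of all genes. At Hoxc8, which had 10 H3K4 and 43 H3K27 reads in mK4 and 83 and 38 in mK3, the ratio was 13.9-fold lower in mK4 (6.001 to 33.9). Hoxc8 H3K4 was not above input in either line, at 0.542-fold in mK4 (0.202 to 1.45) and 0.886-fold in mK3 (0.615 to 1.29). At Hoxc11 the ratio was 11.4-fold lower (3.36 to 41.5), at Hoxc10 7.96-fold (3.39 to 18.7), at Hoxc5 5.38-fold (2.48 to 11.7) and at Hoxc13 4.67-fold (2.35 to 9.31). Smaller differences were found at Hoxc9 (3.99-fold, 1.99 to 8.004), Hoxc12 (3.78-fold, 1.08 to 13.5), Hoxc6 (2.99-fold, 1.23 to 7.35) and Hoxc4 (2.15-fold, 0.739 to 6.28). The anterior sum was 4.85-fold lower in mK4 (3.47 to 6.77) and the posterior sum 6.22-fold lower (4.03 to 9.61), with overlapping intervals. In absolute terms, H3K4 and H3K27 shares stood at a ratio of 0.430 over the cluster in mK4 and 2.32 in mK3. Over the flanking genes the ratio of these libraries was 1.30 in mK4 and 0.9998 in mK3.

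**Figure D4:**
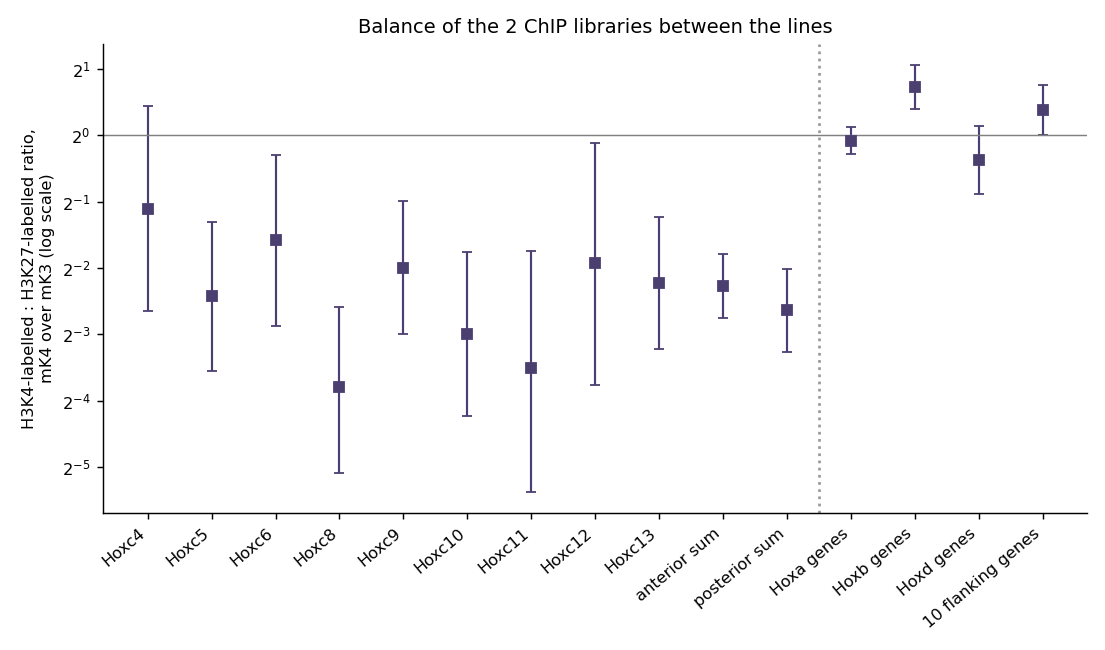
Ratio of H3K4 to H3K27 read shares in mK4 divided by that in mK3, on a log scale with 95% counting intervals, for the 9 HoxC genes, their sums, the other Hox clusters and 10 flanking genes. HoxC genes lie between 0.0720 and 0.466, the Hoxa, Hoxb and Hoxd sums between 0.772 and 1.65, and the flanking genes at 1.30.

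Within each library, the share of HoxC reads that lay over Hoxc10 to Hoxc13 was compared. In H3K4 it was 34.9% in mK4 (58 of 166 reads, 27.7 to 42.7, exact binomial) and 46.3% in mK3 (228 of 492, 41.9 to 50.9). In H3K27 it was 35.0% in mK4 (91 of 260, 29.2 to 41.1) and 40.3% in mK3 (85 of 211, 33.6 to 47.2). In input it was 41.3% in mK4 (31 of 75, 30.1 to 53.3) and 25.3% in mK3 (42 of 166, 18.9 to 32.6). H3K4 in mK3 was the library furthest above the input of its line. In mK4 the intervals of all 3 libraries overlapped. This depends on where the border is drawn: with Hoxc9 counted as posterior, the mK4 share was 46.5% in H3K27 (40.4 to 52.8), 61.4% in H3K4 (53.6 to 68.9) and 66.7% in input (54.8 to 77.1), and the H3K27 interval lay below the others.

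For H3K27 the ratio between the lines was 1.52 over the 9 HoxC genes (1.26 to 1.83), 0.566 over 11 Hoxa genes, 0.844 over 10 Hoxb genes and 0.879 over 9 Hoxd genes. The HoxC ratio was 2.69 times (2.15 to 3.35), 1.80 times (1.37 to 2.35) and 1.73 times (1.33 to 2.25) these. These values use library totals. Scaled to chromosome 15 reads, the HoxC H3K27 ratio was 1.17 (0.969 to 1.41), with an interval that spans 1. The other clusters were not scaled by chromosome. For H3K4 the ratio by library totals was 0.281 over HoxC, 0.535 over Hoxa, 1.40 over Hoxb and 0.678 over Hoxd. HoxC lay below each, at 0.525 (0.431 to 0.638), 0.201 (0.162 to 0.251) and 0.415 (0.292 to 0.591) of their values. Input ratios were 0.364, 0.541, 1.11 and 0.715 in the same order, and the levels over input given below carry these differences. The ratio of H3K4 to H3K27 differed little between the lines over Hoxa (0.947, 0.821 to 1.09) and Hoxd (0.772, 0.541 to 1.10), and was higher in mK4 over Hoxb (1.65, 1.31 to 2.08). In level over input, HoxC in mK4 (2.79-fold for H3K27, 2.15 to 3.65) stood near Hoxd (2.37-fold in mK4, 1.80 to 3.14, and 1.92-fold in mK3, 1.497 to 2.49), while HoxC in mK3 (0.667-fold, 0.542 to 0.823) stood near Hoxb (0.641-fold in mK4, 0.525 to 0.781, and 0.844-fold in mK3, 0.693 to 1.03) and Hoxa (0.584-fold in mK4 and 0.559-fold in mK3). Of the 30 genes of these clusters, 1 was called between the lines, Hoxb7, with 71 H3K4 reads in mK4 and 23 in mK3. Among 8 posterior Hox genes of the other clusters, H3K4 was called different at 0, where 0.392% of all genes were called lower and 0.424% higher. Their largest log2 ratios between the lines were -1.64 at Hoxa13 (8 reads in mK4 and 33 in mK3), -1.38 at Hoxa10 (345 and 757) and -1.06 at Hoxd11 (1 and 8).

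Hox proteins bind DNA with TALE cofactors of the Pbx, Meis and Pknox families, and the Hox11 proteins act in the kidney with Eya1 on genes such as Six2 and Gdnf. Over all genes 0.392% to 0.934% passed each call between the lines, so lists of this size would hold few calls, if any. None of the 9 cofactor genes and none of 9 Hox11 partner and target genes was called higher or lower in mK4 for either mark. Their median H3K4 log2 ratios between the lines were -0.18 and -0.08, beside -0.02 over all genes and -1.25 over the HoxC genes. Their median H3K27 ratios were 0.00 and -0.53, beside -0.06 over all genes and 0.36 over HoxC. Among the cofactor genes, the H3K4 log2 ratio was -1.68 at Meis1 and 1.06 at Meis3, neither marked by H3K4 in either line. Six2, a progenitor factor and Hox11 target, had 13 H3K4 reads in mK4 and 28 in mK3 and 26 H3K27 reads in mK4 and 49 in mK3. Pax2, also of the early nephron, had 26 H3K4 reads in mK4 and 4 in mK3, and 9 H3K27 reads in mK4 and 33 in mK3, the reverse of the HoxC pattern. Of 14 Polycomb genes and 10 measured genes of H3K4 methylation, 0 were called for either mark, which is near the share over all genes.

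Profiles over the 6 libraries were compared with that of the posterior HoxC sum for 9146 genes with a mean scaled count of at least 20. HoxC, sex chromosome and clone-named genes were left out of this set. The nearest gene was Meis1, a Hox cofactor. Its root mean square difference was 0.22 on the log2 scale after each profile was centred. Meis1 had 29 H3K4 reads in mK4 and 90 in mK3, 35 H3K27 reads in mK4 and 31 in mK3, and 15 input reads in mK4 and 23 in mK3. It was followed by Mmp14, a membrane metalloproteinase gene (0.23), Psip1 (0.29), Prrx1, a homeobox gene of limb and craniofacial mesenchyme (0.32), and Bmper, a BMP regulator (0.32). All 5 had fewer H3K4 reads in mK4 than in mK3, from 15 and 53 at Psip1 to 67 and 158 at Prrx1. This follows from how they were picked, since the profile includes both H3K4 libraries. The ranking is a description over 6 libraries, with no test.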

How the data were processed

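The deposited files list whole read counts over the exons of each gene, the exon length and RPKM, per the file headers, for 6 ChIP-seq libraries in 6 groups. The deposited RPKM values equalled the counts divided by exon length and by the exon reads of the library, so reads outside exons, promoters included, are not in these values. Per the submitters' processing notes the reads were placed on mm9. Which aligner was used, and whether duplicates were removed, is not given in the sources used here.

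Where a symbol had several rows (137 symbols), the row with the highest ChIP mean was kept, leaving 21937 of 22088. Counts were scaled to the mean library total of 513622. Log2 ratios used a pseudocount of 5, which understates differences at low counts, and calls used a 2-fold threshold. Folds printed with an interval compare read shares and use no pseudocount; they have exact Clopper-Pearson intervals, and ratios of ratios have exact conditional odds ratio intervals (scipy 1.17.1, 95%). These cover counting error only. The interval for folds of shares was tested on simulated counts, while those for ratios of ratios and for densities were not. Flanking genes are the 5 protein-coding genes on each side in RefSeq order (GRCm38.p6, used for order and sequences only). No count model was fitted. The members and lists were chosen with earlier results of these data known. The ratio of H3K4 to H3K27 was added after the data were seen. All 9 genes were named, with the flanking genes, called or most different list members, and the 5 nearest profiles. Alternatives changed scaling, pseudocount, background, threshold, low-count filter and gene grouping. Of the 15 genes listed for H3K4 methylation, 10 were matched by symbol.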

Additional observations from a re-analysis of the deposited data

Results flagged for a closer look

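Some HoxC values lay on opposite sides of the input in the 2 lines, with the interval of the higher line above 1. With 1 library per group the differences have no replicate check. Hoxc5 H3K27 was 9.84-fold its input in mK4 and 0.459-fold in mK3, a ratio of 21.4 (6.12 to 92.7), and Hoxc5 H3K4 was 3.38-fold in mK4 and 0.850-fold in mK3, a ratio of 3.98 (1.15 to 17.4). Both rest on the same 4 input reads in mK4 and 24 in mK3. Hoxc8 H3K27 was 3.46-fold in mK4 and 0.407-fold in mK3, a ratio of 8.49 (3.58 to 21.2), beside 10 input reads in mK4 and 49 in mK3. Hoxc10 H3K4 was 0.858-fold in mK4 and 2.49-fold in mK3, a ratio of 0.344 (0.130 to 0.938). The anterior H3K27 sum was 3.09-fold in mK4 and 0.534-fold in mK3, a ratio of 5.78 (3.75 to 8.97), beside 44 input reads in mK4 and 124 in mK3.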

How the results depend on the processing

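Of 104 alternative values for 30 results, 81 stayed within the interval of the main value (for counts, within 1.5 times), 22 moved beyond it and 1 reversed. Some of the 81 could not move. Each HoxC gene has 1 row, so summing the rows of a symbol left its counts unchanged. The median over input was 0 over all genes, so centring on it left the values over input unchanged. The reversed one was the anterior H3K4 ratio between the lines, 0.341 by library totals and 1.19 after division by the input ratio of the same genes. The same division gave 5.78 and 2.22 for anterior and posterior H3K27 and 0.357 for posterior H3K4. Scaled to chromosome 15 reads, anterior H3K27 was 1.27 and posterior H3K27 was 1.01, and Hoxc11 and Hoxc13 lay below 1. Without Hoxc8, left out after the data were seen, anterior H3K4 was 0.451. With exon length as background, 5 genes were marked by H3K4 in mK3 and 5 were lower in mK4, and with a 1.5-fold threshold 5 and 6, with 2 marked by H3K4 in mK4. A pseudocount of 10 left 0 marked by H3K4 in mK4, and a mean scaled count of at least 20 left 3 marked by H3K27 in mK4. Counted per exon kilobase, the posterior share was 43.6% in mK4 H3K27, 48.8% in mK3 H3K27, 54.8% in mK3 H3K4 and 33.9% in mK3 input. With Hoxc9 among the posterior genes it was 61.4% in mK4 H3K4, 65.7% in mK3 H3K4, 46.5% in mK4 H3K27, 51.7% in mK3 H3K27, 66.7% in mK4 input and 44.0% in mK3 input. The ratio of H3K4 to H3K27 between the lines was between 0.161 and 0.256 for both sums. Only chromosome 15 scaling and, for the anterior sum, leaving out Hoxc8 were tried for it. Genes with under 10 input reads limit the values over input. No library could be left out, since each group has 1. No paired analysis was possible because each line has 1 library of each kind and all carry replicate number 1.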
